A study of Mus musculus with 8 samples.

Results

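Serotonin, dopamine, noradrenaline and acetylcholine reach the hippocampus through fibres whose cell bodies mostly lie elsewhere, and the response to each transmitter is set by the receptors that hippocampal cells make. The mRNAs of 33 of these receptors were examined out of 25834 genes counted: 12 serotonin, 5 dopamine, 7 adrenergic, 5 muscarinic and 4 nicotinic receptor genes. The members were taken by gene symbol from these families, and all 33 were found in the count table.

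Hippocampal RNA of 8 male mice, 4 of them controls and 4 SAP97-cKO, was sequenced as 1 library per animal. SAP97-cKO mice carried a Nestin-cre transgene on 1 allele and floxed SAP97 on both, and Nestin-driven Cre acts in neural progenitors and so in most neurons and glia that descend from them, but not in cells of other origin such as microglia. Controls were littermates with Nestin-cre alone, floxed SAP97 alone or neither, so a library labelled control could carry either allele. Which of these genotypes each control library had, and the age of the sequenced mice, were not given in the sources used here. SAP97 is a membrane-associated guanylate kinase that holds receptors and channels at synapses through its PDZ domains. The comparison asks whether mRNA levels of receptors for modulatory transmitters differed between the genotypes.

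Most monoamine and muscarinic receptors are G protein-coupled receptors. Those coupled to Gs raise cyclic AMP, those coupled to Gi lower it and those coupled to Gq drive phospholipase C, whereas the nicotinic subunits and Htr3a form ion channels. In the hippocampus they are known for setting the excitability of pyramidal cells and interneurons and for adjusting transmitter release and synaptic plasticity. By coupling, the members were 14 Gi, 8 Gq and 6 Gs receptors and 5 channel subunits. The coupling of Htr5b is less well established than that of the others, and it was placed with its relative Htr5a.

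Promoter sequences were available from RefSeq (build GRCm38.p6, 250 bases before to 50 bases after each start site) for 27 of the 33 members, with 32 promoters in all. Chrm1, Adra1a, Adra1d, Htr3a, Htr4 and Htr5b had no entry. The promoters shown are those of Adrb1, the single tested member whose genotypes did not overlap, of Chrm4, which had the highest log2 fold change of the members at an unadjusted p under 0.05, and of Htr2c, which had the lowest log2 fold change. Capitals mark GC boxes (GGGCGG) and CCAAT boxes (CCAAT) on either strand, so that a box on the other strand reads CCGCCC or ATTGG. They lie at chr19:56721867-56722166, chr2:91921939-91922238 and chrX:146962263-146962562, each on the plus strand.
Adrb1: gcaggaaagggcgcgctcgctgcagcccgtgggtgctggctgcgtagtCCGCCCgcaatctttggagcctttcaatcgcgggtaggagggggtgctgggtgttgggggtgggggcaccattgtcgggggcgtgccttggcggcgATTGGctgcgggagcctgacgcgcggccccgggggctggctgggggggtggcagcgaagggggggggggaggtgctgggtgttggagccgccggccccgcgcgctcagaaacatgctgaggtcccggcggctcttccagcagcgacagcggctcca
Chrm4: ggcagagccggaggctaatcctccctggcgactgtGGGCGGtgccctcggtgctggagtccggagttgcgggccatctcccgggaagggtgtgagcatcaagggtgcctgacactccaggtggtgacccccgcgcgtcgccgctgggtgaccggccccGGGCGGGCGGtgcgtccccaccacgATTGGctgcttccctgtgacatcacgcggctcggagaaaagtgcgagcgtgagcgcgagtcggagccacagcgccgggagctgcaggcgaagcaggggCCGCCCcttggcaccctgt
Htr2c: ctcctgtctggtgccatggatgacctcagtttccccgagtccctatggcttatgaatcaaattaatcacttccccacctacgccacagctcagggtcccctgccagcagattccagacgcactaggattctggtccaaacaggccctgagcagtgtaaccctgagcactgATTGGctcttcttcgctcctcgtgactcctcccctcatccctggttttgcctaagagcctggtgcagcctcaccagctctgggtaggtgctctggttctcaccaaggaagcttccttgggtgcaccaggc

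The Adrb1 promoter held 1 GC box and 1 CCAAT box at a GC content of 72.3%. The Chrm4 promoter held 4 GC boxes, of which 2 overlap, and 1 CCAAT box at 70.7% GC. The Htr2c promoter held no GC box and 1 CCAAT box at 56.3% GC. Over the 32 member promoters, 21 held a GC box, 11 a CCAAT box, 1 (Adra2a) a TATA box (TATAAA) and 0 a cyclic AMP response element (TGACGTCA). Among all 32851 promoters of the same length, 35.7% held a GC box, 37.4% a CCAAT box, 13.6% a TATA box and 1.79% a cyclic AMP response element, and the median GC content was 52.7%. These matches describe the letters in the windows, and the motifs were chosen after the expression values had been seen.

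Each library held 37388177 to 37426572 counts, and the 33 receptors together took 25800 to 32710 of them. Dlg1, the gene for SAP97, stood at 4338 ± 336 normalized counts (SD, n = 4) in control and 2393 ± 470 (n = 4) in SAP97-cKO libraries, with no overlap between the groups, a log2 fold change of -0.86 ± 0.12 (SE) and an FDR of 0.143 by edgeR's quasi-likelihood test. The count covers every exon of the gene and not the floxed exon alone. Of the cell type lists, 15 meningeal fibroblast genes summed to 12625 to 23649 normalized counts in control and 7128 to 12151 in SAP97-cKO libraries, and 15 choroid plexus genes to 6862 to 263610 and 3962 to 90779. The hippocampal subfield list (Prox1, Zbtb20 and 14 others) held counts for all of its 16 genes. It summed to 48681 to 68282 in control and 48387 to 74947 in SAP97-cKO libraries. The other cell type lists also had no gene at 0 in all libraries, so these counts do not test the tissue label. In whole tissue, fewer cells of a type and less RNA per cell cannot be told apart.

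Per kilobase of exon, the most abundant receptor mRNA was Chrm1, the Gq-coupled M1 muscarinic receptor of pyramidal cells, at a mean of 37.8 RPKM over the 8 libraries (range 30.1 to 46.8). RPKM here means normalized reads per kilobase of annotated exon, scaled to the size of the library. Adra1d, the Gq-coupled alpha-1D adrenergic receptor, was second at 27.2 RPKM (18.8 to 40.3). Chrm3 followed at 11.3, Htr1a at 10.8, Adra2c at 8.79 and Chrnb2 at 7.77 RPKM. Thus a muscarinic and an adrenergic receptor led the order, followed by another muscarinic receptor, the leading serotonin receptor, another adrenergic receptor and the leading nicotinic subunit.

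The middle of the order ran from Htr2c at 6.78 through Chrm4 at 5.82, Chrna7 at 5.34, Htr3a at 4.34, Adrb1 at 4.28, Chrna4 at 4.17 and Drd5 at 3.62 RPKM. Adra2a, Htr5b, Htr7, Htr5a, Htr4 and Htr6 lay between 3.36 and 2.08 RPKM. Htr1b, Chrm2, Chrna5, Drd1, Htr2a, Chrm5 and Adra1b lay between 1.80 and 1.32 RPKM, and Adra1a, Htr1f and Drd2 between 0.736 and 0.573 RPKM. At the bottom were Htr1d at 0.121, Adra2b at 0.0668, Drd4 at 0.0374 and Drd3 at 0.0217 RPKM. Most steps in this order were within the spread of the libraries: the ranges of 30 of the 32 neighbouring pairs overlapped, and only Adra1d against Chrm3 and Adra1b against Adra1a did not. The levels are approximate for 13 of the 33 members, whose annotated span differs from that in the count table, and the models of Chrm4 and Chrm5 hold the coding exon alone.

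**Figure D1:**
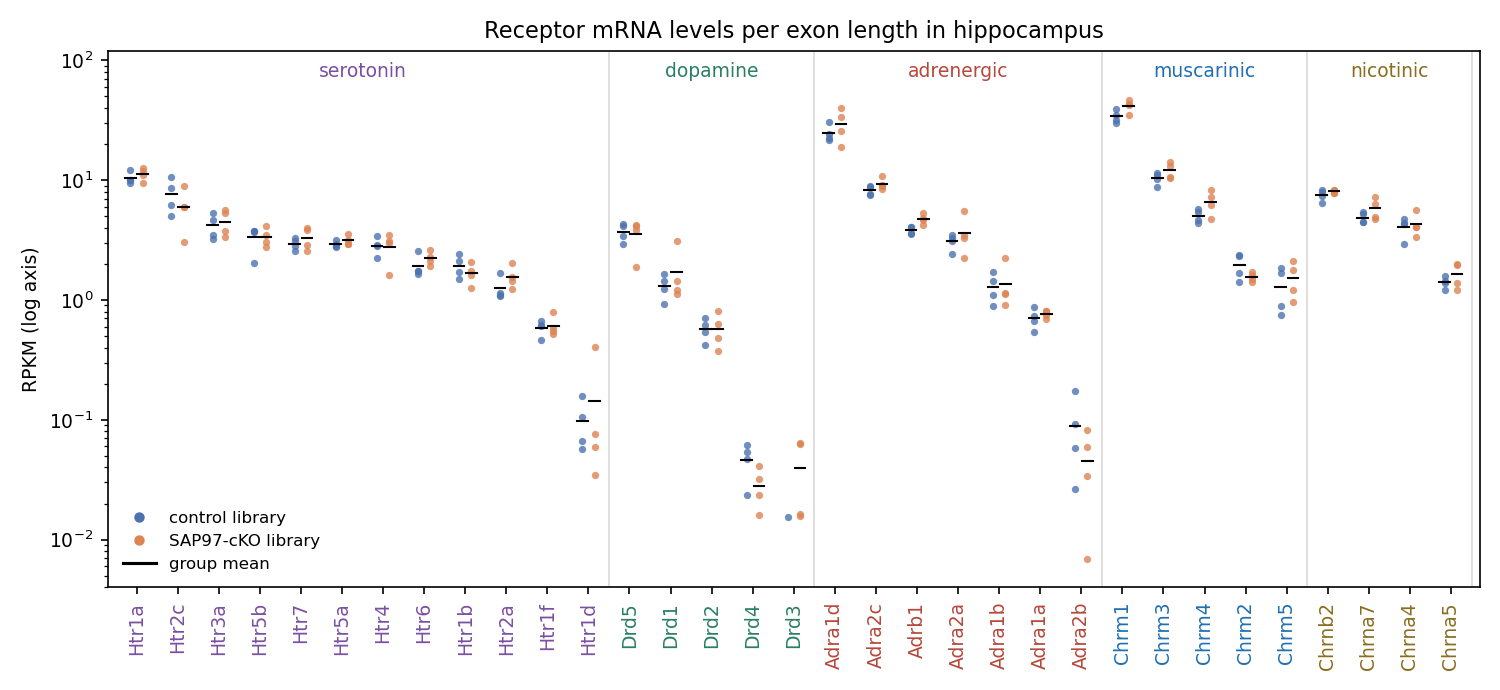
Level of each of the 33 receptor mRNAs in RPKM on a log axis, grouped by transmitter and ordered by mean level within each group. Points are single libraries (control in blue, SAP97-cKO in orange, 4 each) and bars are group means, and libraries at 0 (3 control libraries for Drd3) are not drawn. Chrm1 and Adra1d stood highest, Drd3, Drd4, Adra2b and Htr1d had the lowest means, and the 2 colours overlapped for nearly every receptor.

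Between genotypes, none of the 29 receptors that passed the low-count filter was past an FDR of 0.25 in either direction by edgeR's quasi-likelihood test, and the lowest FDR was 0.338. Of all 16251 genes tested, 46 (0.283%) were called lower and 2 (0.0123%) higher. At an unadjusted p under 0.05, 3 of the 29 receptors were higher (Adrb1, Chrm1 and Chrm4) and 0 lower, where 4.73% of all genes were higher and 7.01% lower. By limma-voom 0 receptors were called (0.295% of all genes lower and 0.0123% higher), and by DESeq2 2 were called higher (Adrb1 and Chrm1), where DESeq2 called 2.91% of its 15293 genes higher and 3.84% lower. Without control replicate 1 edgeR called 4 receptors higher (Adrb1, Chrm1, Htr2a and Htr6), where 4.34% of all genes were higher and 5.83% lower, and without SAP97-cKO replicate 1 it called 2 (Adrb1 and Chrm4), where the shares were 1.58% and 2.73%. Leaving out any one of the other 6 libraries gave 0 calls among the receptors. For control replicate 2, SAP97-cKO replicate 3 and SAP97-cKO replicate 4, it gave 0 calls among all genes too.

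Most of the receptors lay slightly above their control level: 24 of the 29 had a log2 fold change above 0 and the median was 0.13, beside 47.2% of genes above 0 and a median of -0.01 over all genes tested. With no scaling of the libraries, 22 of 29 were above 0 and the median was 0.08, with Htr5b and Drd2 turning below 0. All 6 tested adrenergic receptors and all 4 nicotinic subunits were above 0 under each scaling (medians 0.21 and 0.17 with TMM), as were 4 of 5 muscarinic (0.24) and, with TMM scaling, 8 of 11 serotonin (0.11) and 2 of 3 dopamine receptors (0.01). By coupling and with TMM scaling, 7 of 8 Gq receptors were above 0 (median 0.23), 4 of 6 Gs (0.20), 8 of 10 Gi (0.08) and 5 of 5 channel subunits (0.11). General neuron genes had the same direction: of 10 such genes 8 were above 0, with a median of 0.15. Of the 8, 4 were at an unadjusted p under 0.05, where 4.73% of all genes were higher. Their sums were 430010 to 474050 normalized counts in control and 472820 to 539640 in SAP97-cKO libraries. Their part in the receptors' median was not tested. With the meningeal list as a covariate, whose sums did not overlap between genotypes, 16 of the 29 receptors were above 0 and the median was 0.03. As the list differed with genotype, this fit cannot tell the list from genotype. In that fit 3 receptors were lower (Htr1b at -0.82, Htr4 at -0.81 and Htr5b at -0.70) and 2 higher (Drd1 at 1.45 and Chrm4 at 0.72) at an unadjusted p under 0.05, where 1.55% of all genes were lower and 2.4% higher, and each had an FDR of 0.985 by edgeR.

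**Figure D2:**
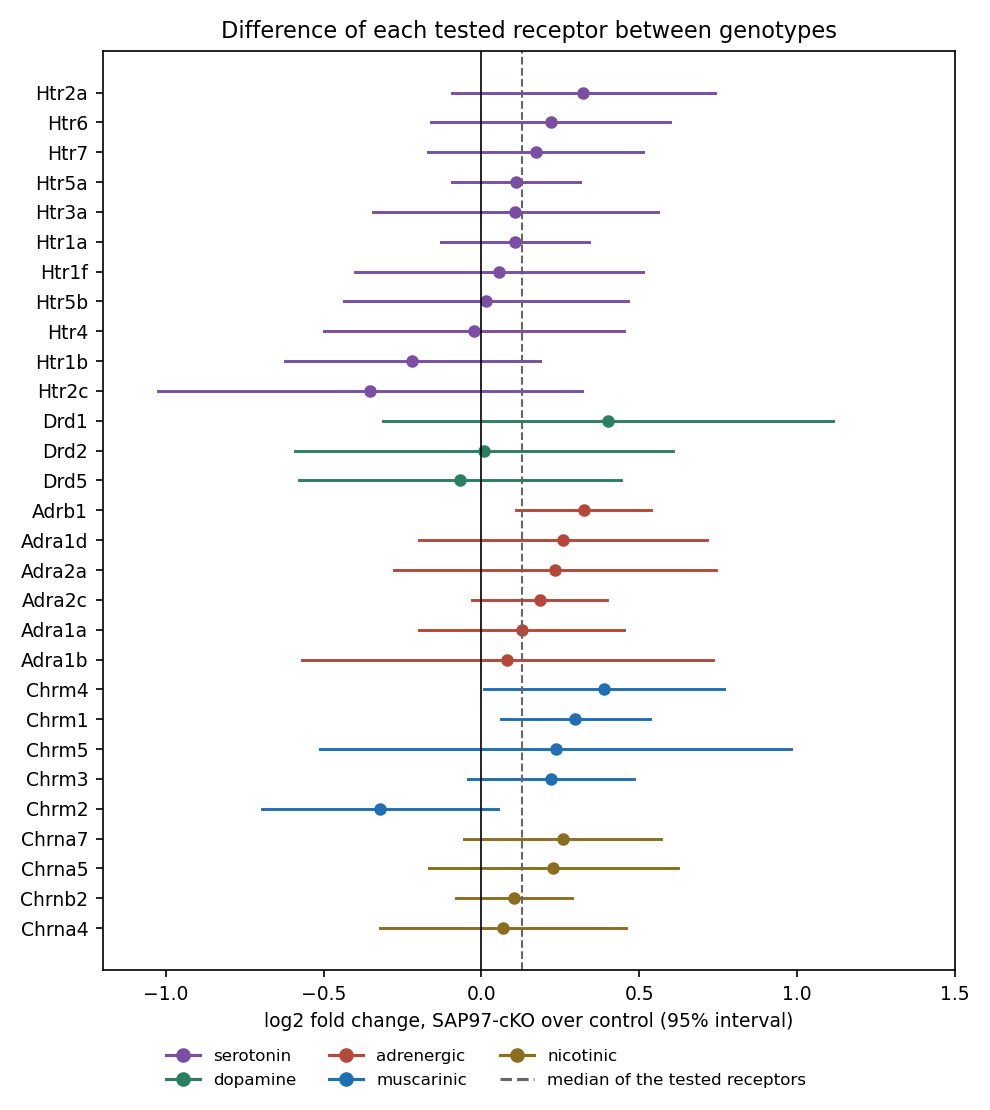
Log2 fold change (SAP97-cKO over control) of the 29 tested receptors with its 95% interval from edgeR, coloured by family. The dashed line is their median of 0.13, and only the intervals of Adrb1, Chrm1 and Chrm4 lie clear of 0 before adjustment for the number of genes tested.

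Among the serotonin receptors, Htr1a was the most abundant. It encodes the Gi-coupled receptor through which serotonin inhibits pyramidal cells (ENSMUSG00000021721, chr13:105443639-105448122, plus strand, GRCm38). In control replicates 1 to 4 it stood at 2048, 1684, 1599 and 1667 normalized counts, and in SAP97-cKO replicates 1 to 4 at 2120, 1583, 1854 and 1978. The groups overlapped almost wholly (1749 ± 203 against 1884 ± 228, SD, n = 4 each), with a log2 fold change of 0.11 ± 0.11 (SE) and an FDR of 0.682 by edgeR.

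Htr2c encodes a Gq-coupled serotonin receptor that is also abundant in the choroid plexus epithelium (ENSMUSG00000041380, chrX:146962513-147197277, plus strand). Its control libraries held 2152, 3704, 3000 and 1755 normalized counts and its SAP97-cKO libraries 1056, 3093, 2099 and 2062, in replicate order. The groups overlapped, and the highest library exceeded the lowest 3.51-fold, with control replicate 2 at the top and SAP97-cKO replicate 1 at the bottom. The log2 fold change was -0.35 ± 0.30 (SE, 95% interval -1.02 to 0.32, FDR 0.638 by edgeR), which was the lowest of the 29 receptors.

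The level of Htr2c went with choroid plexus genes in part. The choroid plexus list, led by the thyroxine carrier Ttr and by Kl, was highest in control replicates 2 and 3 and SAP97-cKO replicate 2 (263610, 147230 and 90779 normalized counts), which were the 3 libraries with most Htr2c. At the low end, control replicate 4 was next to lowest in both (6862 and 1755), whereas the library with the lowest sum, SAP97-cKO replicate 4 at 3962, had more Htr2c (2062) than SAP97-cKO replicate 1 (1056), whose sum was 21999. All 15 genes of the list were below their control level (median log2 fold change -1.48), with 0 called by edgeR and 0 at an unadjusted p under 0.05. With the list as a covariate the log2 fold change of Htr2c was -0.066, and with the meningeal list it was 0.31 (FDR 0.435 to 0.985 over all alternatives).

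**Figure D3:**
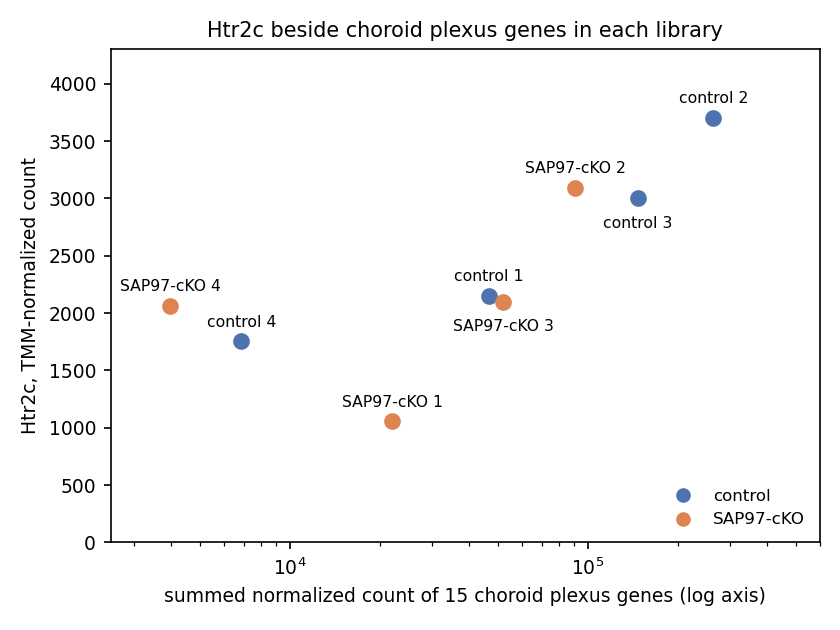
Normalized count of Htr2c in each of the 8 libraries (vertical axis) against the summed normalized count of 15 choroid plexus genes (horizontal log axis). The 3 libraries with the highest sums had 3000 to 3704 normalized counts of Htr2c and the other 5 had 1056 to 2152.

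The other tested serotonin receptors had log2 fold changes from -0.22 to 0.32. Htr2a, the Gq-coupled receptor of cortical and hippocampal neurons, had 262 ± 62 normalized counts in control and 328 ± 70 in SAP97-cKO libraries, a log2 fold change of 0.32 ± 0.19 (SE). Without control replicate 1, which held 354 counts where the other controls held 225 to 240, this was 0.50 with an FDR of 0.216 by edgeR (0.216 to 0.985 over all alternatives). The Gs-coupled receptors Htr6, Htr7 and Htr4 had log2 fold changes of 0.22, 0.17 and -0.02 (Htr4 -0.81 with the meningeal covariate), and without the same library Htr6 reached 0.39 at an FDR of 0.236 (0.236 to 1.00).

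The channel subunit Htr3a, known from interneurons, had 326 ± 74.7 normalized counts in control and 351 ± 86.5 in SAP97-cKO libraries. Htr5a, Htr5b and Htr1f had log2 fold changes of 0.11, 0.01 and 0.06, and Htr1b, the Gi-coupled receptor that curbs release from nerve terminals, had -0.22 ± 0.18 (SE), which was -0.82 with the meningeal list as a covariate. Htr5a had the narrowest 95% interval of the serotonin receptors, from -0.09 to 0.31. Reads of Htr1b and its antisense neighbour D430036J16Rik may not be told apart over 852 of 4724 exon bases, since the use of strand in the counting was not given.

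The leading dopamine receptor stood below the leading receptor of each other family. This was Drd5, a Gs-coupled D1-like receptor (ENSMUSG00000039358, chr5:38319367-38322518, plus strand), with 486, 404, 506 and 348 normalized counts in control and 501, 224, 456 and 485 in SAP97-cKO replicates 1 to 4. SAP97-cKO replicate 2 stood well below the other 7 libraries, and the groups otherwise overlapped (log2 fold change -0.07 ± 0.23, SE; FDR 0.920 by edgeR; -0.78 with the meningeal covariate). Of the 3152 exon bases of Drd5, 1531 are shared with the antisense gene Gm26560, which held a mean of 20 counts.

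Drd1, the Gs-coupled receptor of striatal output neurons that is also found in the dentate gyrus, had the highest log2 fold change of the receptors, 0.40 ± 0.32 (SE, 95% interval -0.31 to 1.11). It rested on 1 library: SAP97-cKO replicate 2 held 424 normalized counts, the other SAP97-cKO libraries 151 to 197 and the controls 124 to 221. Without that library the log2 fold change was -0.056, and with the meningeal list as a covariate it was 1.45 (FDR 0.476 to 0.985 over all alternatives by edgeR, limma-voom and DESeq2). Drd2, the Gi-coupled receptor, had 54.4 ± 11.6 normalized counts in control and 54.7 ± 18.2 in SAP97-cKO libraries.

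Drd3 and Drd4, both Gi-coupled, were too low to be tested. Drd3 had 1 read in all in the control and 10 in the SAP97-cKO libraries, which gives a ratio of 10 with a 95% interval of 1.42 to 434, and every SAP97-cKO library held at least 1 read. Drd4 had 24 and 14 reads (ratio 0.583, 0.279 to 1.17). The intervals are exact and cover counting error only. With no filter on low counts, the FDR of Drd3 was 0.491 and that of Drd4 0.662 by edgeR.

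Of the adrenergic receptors, Adrb1 had the lowest p of the whole set. It encodes the Gs-coupled beta-1 receptor, through which noradrenaline raises cyclic AMP and favours long-term potentiation, and its carboxyl tail is known to bind PDZ scaffold proteins (ENSMUSG00000035283, chr19:56722199-56733113, plus strand). Control replicates 1 to 4 held 510, 453, 446 and 511.5 normalized counts and SAP97-cKO replicates 1 to 4 held 537, 675, 585 and 609. Every SAP97-cKO library was above every control library, as was so for 2.78% of all genes tested, and no tested receptor lay wholly below its controls, where 3.47% of all genes did.

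The means of Adrb1 were 480 ± 35.5 and 601 ± 57.6 normalized counts (SD, n = 4 each), a log2 fold change of 0.32 ± 0.10 (SE, 95% interval 0.11 to 0.54). The exact two-sided permutation p was 0.0286, the smallest that 4 against 4 libraries allow, and edgeR gave an unadjusted p of 0.00692 and an FDR of 0.338. The FDR ran from 0.105 (DESeq2) to 0.985 (meningeal covariate), and was under 0.25 with DESeq2 and when replicate 1 was left out of the controls (0.204) or of the SAP97-cKO libraries (0.211). In each alternative the log2 fold change was between 0.26 and 0.41.

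Adra1d was the most abundant adrenergic receptor (ENSMUSG00000027335, chr2:131545850-131562283, minus strand). Its control libraries held 2170, 1546, 1721 and 1587 normalized counts and its SAP97-cKO libraries 1839, 1334, 2378 and 2861. The SAP97-cKO libraries spanned the control range on both sides, with replicate 2 lowest and replicate 4 highest of all 8 (log2 fold change 0.26 ± 0.21, SE; FDR 0.614 by edgeR).

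The other Gq-coupled alpha-1 receptors, Adra1a and Adra1b, had log2 fold changes of 0.13 and 0.08. For Adra1b the sign rested on SAP97-cKO replicate 2, which held 285 normalized counts against 115 to 144 in the other SAP97-cKO and 112 to 214.5 in the control libraries, and without it the value was -0.28. The Gi-coupled alpha-2 receptors, which include the autoreceptors of noradrenergic fibres, had log2 fold changes of 0.18 ± 0.10 (SE) for Adra2c and 0.23 ± 0.23 for Adra2a. Adra2a was again highest in SAP97-cKO replicate 2 (990 counts, against 405 to 635 in the other 7 libraries), and without that library its value was -0.036. Adra2b was not tested, with 54 reads in control and 27 in SAP97-cKO libraries (ratio 0.50, 95% interval 0.303 to 0.808, counting error only), and its FDR with no filter was 0.636 by edgeR.

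The muscarinic receptors held the other members at an unadjusted p under 0.05. Chrm1 (ENSMUSG00000032773, chr19:8663789-8683587, plus strand) had 9504, 8497, 7644 and 7297 normalized counts in control replicates 1 to 4 and 10217, 8523, 10407 and 11347 in SAP97-cKO replicates 1 to 4. The groups overlapped in that control replicate 1 exceeded SAP97-cKO replicate 2, and the other 3 SAP97-cKO libraries lay above all controls. The means were 8236 ± 984 and 10124 ± 1176 (SD, n = 4 each), with a log2 fold change of 0.30 ± 0.11 (SE, 95% interval 0.06 to 0.53), an exact permutation p of 0.0571 and an FDR of 0.368 by edgeR. Its FDR was 0.183 with DESeq2 and 0.187 without control replicate 1, and 0.183 to 0.985 over all alternatives. Its log2 fold change ran from 0.15 (meningeal covariate) to 0.37.

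Chrm4 encodes the Gi-coupled M4 receptor, an inhibitory muscarinic receptor known from striatal neurons and from hippocampal terminals (ENSMUSG00000040495, chr2:91927249-91928688, plus strand). It stood at 291, 248, 237 and 310 normalized counts in control and 253, 449, 386 and 334 in SAP97-cKO replicates 1 to 4. SAP97-cKO replicates 2, 3 and 4 were above all controls and replicate 1 was among them. The means were 271 ± 34.5 and 355 ± 83.1 (SD, n = 4 each), with a log2 fold change of 0.39 ± 0.17 (SE, 95% interval 0.0074 to 0.77), an exact permutation p of 0.114 and an FDR of 0.420 by edgeR.

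Without SAP97-cKO replicate 2 the log2 fold change of Chrm4 was 0.26, and without SAP97-cKO replicate 1 it was 0.53 with an FDR of 0.211 (0.211 to 0.985 over all alternatives). With the meningeal covariate it was 0.72. The promoter of Chrm4 printed above lies upstream of its counted model, which holds the coding exon alone, so reads in its other exons did not enter the count. Chrm3, the Gq-coupled M3 receptor, had a log2 fold change of 0.22 ± 0.12 (SE) and Chrm5 of 0.24 ± 0.34. Chrm2, the Gi-coupled autoreceptor of cholinergic terminals, was the muscarinic receptor below its control level, at 441 ± 109 against 353 ± 31.4 normalized counts, a log2 fold change of -0.32 ± 0.17 (SE) and an FDR of 0.465 by edgeR. Chrm2 was below 0 in every alternative, from -0.45 to -0.14.

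**Figure D4:**
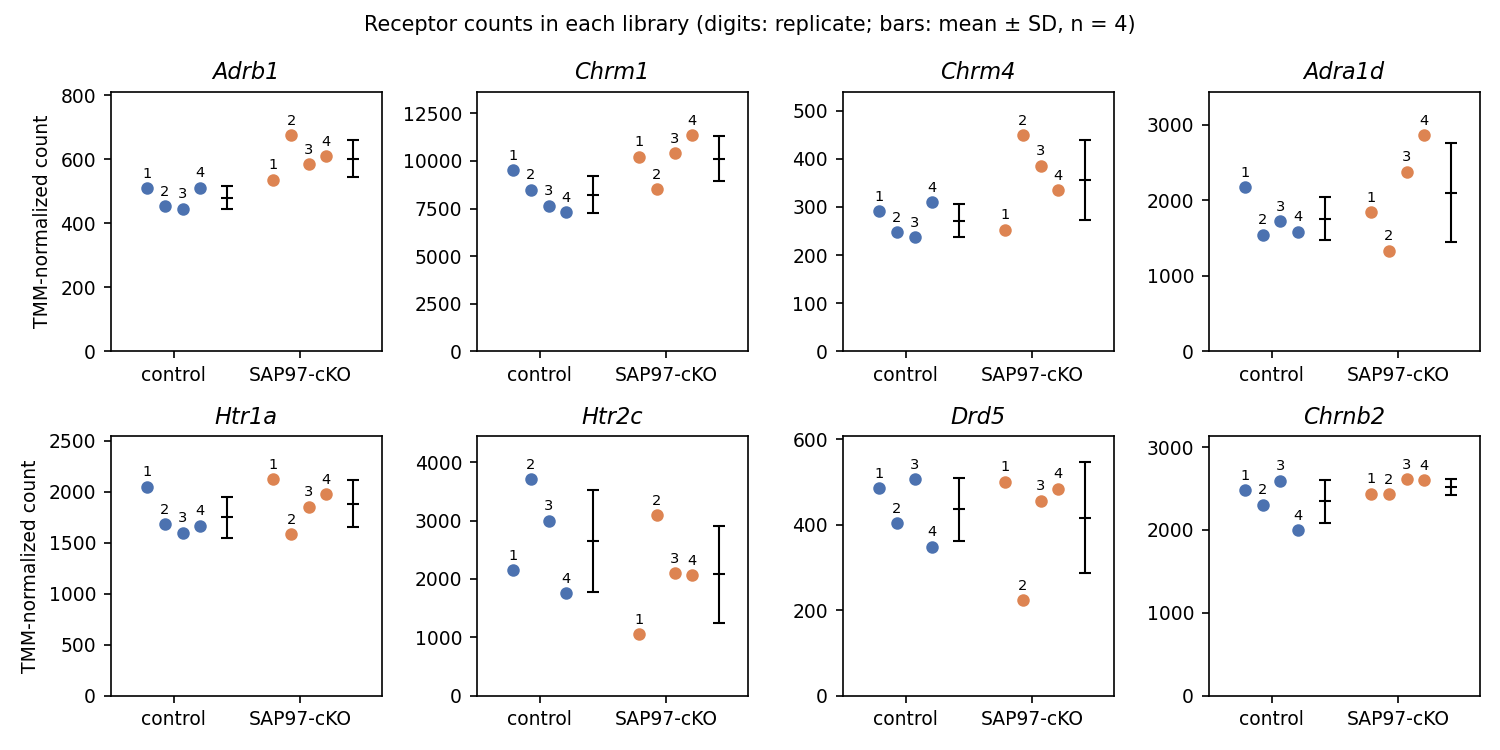
Normalized counts of 8 receptors in each library (blue control, orange SAP97-cKO; the digit is the replicate), with the mean and SD of 4 libraries per group. Adrb1 is the one receptor of the 8 whose groups did not overlap (446 to 511.5 against 537 to 675), and Htr2c had the widest spread.

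The nicotinic subunits form channels that pass cations when acetylcholine binds. Chrnb2, which joins Chrna4 in the high-affinity receptor, was the most abundant (ENSMUSG00000027950, chr3:89746195-89764632, minus strand). It had 2483, 2308, 2596 and 1999 normalized counts in control and 2437, 2432, 2610 and 2602 in SAP97-cKO replicates 1 to 4. Control replicate 4 was the lowest and the groups otherwise lay together (log2 fold change 0.10 ± 0.08, SE, 95% interval -0.08 to 0.29; FDR 0.619 by edgeR). Over 1365 of its 8380 exon bases Chrnb2 overlaps Adar on the other strand, which held a mean of 5639 counts, and reads of that stretch may not be told apart.

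Chrna7, whose subunits form a channel of their own, had 819 ± 83.9 normalized counts in control and 979 ± 205 in SAP97-cKO libraries, a log2 fold change of 0.26 ± 0.14 (SE). Chrna4 had 0.07 ± 0.18 and Chrna5, an accessory subunit, 0.23 ± 0.18. Without SAP97-cKO replicate 2 the value of Chrna4 was -0.093, whereas those of Chrna7 and Chrna5 were above 0 whichever library was left out.

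The high values were spread unevenly over the libraries. Of the 29 tested receptors, 10 were highest of all 8 libraries in SAP97-cKO replicate 2 and 10 in SAP97-cKO replicate 4, whereas these libraries were highest for 12.8% and 11.8% of all genes tested. The receptors differed between them: replicate 2 led in Htr2a, Htr5a, Htr7, Drd1, Drd2, Adra1b, Adra2a, Adrb1, Chrm4 and Chrna4, and replicate 4 in Htr3a, Htr4, Htr5b, Htr6, Adra1d, Adra2c, Chrm1, Chrm5, Chrna5 and Chrna7. SAP97-cKO replicate 2 was also the lowest for Htr1a, Htr4, Drd5 and Adra1d. Control replicates 4 and 3 were lowest for 8 and 7 receptors, beside 23.7% and 9.49% of all genes.

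Region markers moved with SAP97-cKO replicate 2. It had the least Dsp (902 normalized counts, against 1544 to 3933 in the others) and Prox1 (2435), both genes of dentate granule cells, and the most Cux2 (1956), an upper-layer cortical gene. Its neocortex list summed to 11587 normalized counts, against 7495 to 8914 elsewhere. Without this library 21 of 30 tested receptors were above 0, the median log2 fold change was 0.13, Adrb1 was at 0.26 and Chrm1 at 0.37, and 6 receptors were higher and 0 lower at an unadjusted p under 0.05 (4.75% and 7.1% of all genes), with 0 past an FDR of 0.25 by edgeR.

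**Figure D5:**
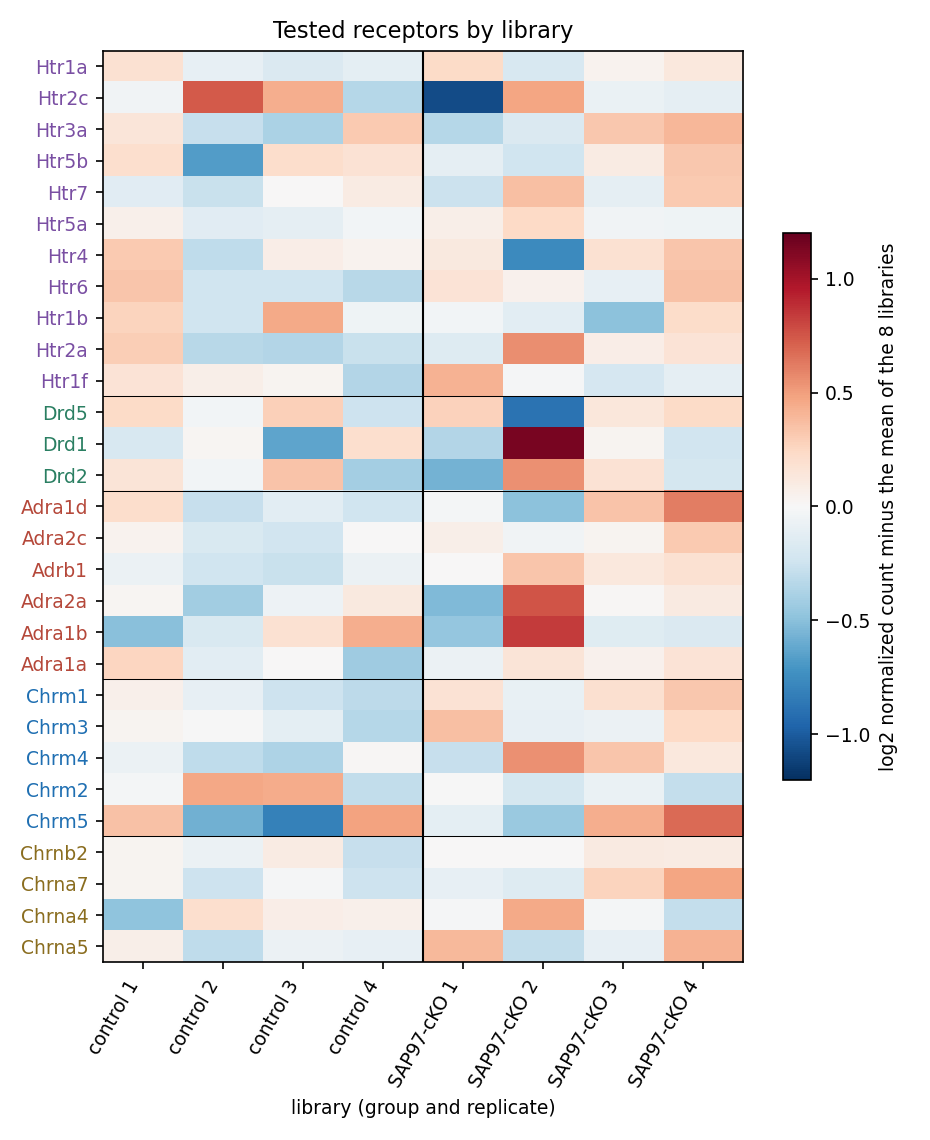
Log2 normalized count of each tested receptor in each library, minus its mean over the 8 libraries; red is above and blue below, with the scale on the right, and families are separated by lines. SAP97-cKO replicate 2 stands apart in both directions (Drd1 and Adra1b high, Drd5 and Htr4 low), and SAP97-cKO replicate 4 is the highest library for 10 receptors and the lowest for 0.

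Genes that supply or relay these transmitters were compared from fixed lists, and 0 genes of any of the 4 lists were past an FDR of 0.25 by edgeR with all 8 libraries. In the list of synthesis, uptake and breakdown, 13 of 16 tested genes were below their control level (median log2 fold change -0.53). At an unadjusted p under 0.05, 4 were lower and 0 higher, where 7.01% of all genes were lower and 4.73% higher. The median rested on control replicate 3, which held the most Chat, Slc5a7, Slc6a4, Dbh and Th, and was -0.10 without it, with 12 of 16 genes below 0 and 3 lower at that p. Without control replicate 1, 3 genes of the list were lower at an FDR of 0.25 (Maob, Ddc and Bche), beside 5.83% of all genes. Without SAP97-cKO replicate 1 it was 2 (Maob and Ddc), beside 2.73%. The 4 genes were Maob, a monoamine oxidase (-0.38 ± 0.11, SE; FDR 0.332), Ddc, the decarboxylase that makes serotonin and dopamine (-0.60 ± 0.19; FDR 0.341), Tph2, the serotonin-making hydroxylase of neurons (-0.75 ± 0.28), and Bche, a cholinesterase (-0.62 ± 0.25). Of these, Tph2 was also highest in control replicate 3 (128 normalized counts, against 39.5 to 110 in the others). Without that library its log2 fold change was -0.58, with an unadjusted p of 0.070 by edgeR. The summed counts of the list were 7571 to 9645 in control and 7374 to 7791 in SAP97-cKO libraries and overlapped.

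Of the G proteins, effectors and desensitising kinases and arrestins, 20 of 29 were above their control level (median 0.08). At an unadjusted p under 0.05, Adcy5 (0.23 ± 0.08, SE), an adenylyl cyclase, and Plcb1 (0.23 ± 0.10), the phospholipase C of Gq signalling, were higher and Gnai3 (-0.17 ± 0.06), an inhibitory G protein, was lower. Over all genes, 4.73% were higher and 7.01% lower at that p. Without control replicate 1, 4 genes of this list were called higher and 1 lower at an FDR of 0.25 by edgeR. The shares of all genes were 4.34% and 5.83%. Without SAP97-cKO replicate 1 it was 2 higher and 0 lower, beside 1.58% and 2.73% of all genes. Of the receptor partners and chaperones, 12 of 18 were above their control level (median 0.07), with 3 higher and 2 lower at that p. Dlg4, the gene for PSD-95 and a relative of SAP97, had 26774 ± 1361 normalized counts in control and 30967 ± 1626 in SAP97-cKO libraries. Its log2 fold change was 0.21 ± 0.07 (SE, FDR 0.358 by edgeR). The groups did not overlap, as was so in that direction for 2.78% of all genes tested. In the paper's western blots, PSD-95 protein of the hippocampus did not differ significantly between control and SAP97-cKO males. Lypd1, which restrains nicotinic receptors, and Akap5, which anchors protein kinase A near beta receptors, had 0.32 ± 0.13 and 0.36 ± 0.15, whereas Akap12 and Slc9a3r2 had -0.33 ± 0.11 and -0.21 ± 0.08. Without control replicate 1, 4 genes of this list were called higher and 1 lower, beside 4.34% and 5.83% of all genes. Without SAP97-cKO replicate 1 it was 0 higher and 1 lower, beside 1.58% and 2.73%.

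Of 16 receptors of the same and related families outside the 33, 11 were tested, with a median log2 fold change of -0.08. At an unadjusted p under 0.05, 3 were lower and 1 higher, where 7.01% of all genes were lower and 4.73% higher. Of the 11, the higher one was Hrh2, the Gs-coupled histamine receptor (FDR 0.40 by edgeR). It had 64.7 ± 8.58 normalized counts in control and 84.6 ± 4.96 in SAP97-cKO libraries. The groups did not overlap, as was so in that direction for 2.78% of all genes. Of the lower ones, the nicotinic subunits Chrnb3 and Chrnb4 had log2 fold changes of -1.56 ± 0.65 and -1.90 ± 0.83 (SE), and both rested on control replicate 3, which held 149 and 151 normalized counts where the other 7 libraries held 11.1 to 31.1 and 10.4 to 15.9. Without that library they had -0.38 and -0.079, and without control replicate 1 both were past an FDR of 0.25 (0.228 and 0.237 by edgeR). Without control replicate 1, 5.83% of all genes were called lower.

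The remaining cell type lists were as follows. Oligodendrocyte genes, among them Mbp, were below their control level in 8 of 8 (median log2 fold change -0.47). Of these, 5 were lower at an unadjusted p under 0.05, beside 7.01% of all genes. Meningeal genes were below in 15 of 15 (-1.14), with 5 past an FDR of 0.25 by edgeR, beside 0.283% of all genes. These 5 (Ogn, Col1a2, Slc22a6, Col3a1 and Slc6a13) are also among the genes the paper listed as different in these libraries. The meningeal list is thus not independent of the comparison. Endothelial genes had a median of -0.19, thalamus and habenula genes -0.42, astrocyte genes 0.05, striatal genes 0.07, hippocampal subfield genes 0.09, interneuron and neocortex genes 0.01 each and microglia genes 0.01. No gene of any of the 12 lists was at 0 in all libraries. The part of these lists in the receptors' values was not tested beyond the choroid plexus and meningeal covariates, of which the meningeal one cannot be told apart from genotype.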

How the data were processed

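RNA from 4 control and 4 SAP97-cKO male hippocampi was sequenced on an Illumina HiSeq. The authors aligned the reads with STAR 2.5.3a to mm10 (GRCm38.p5), resampled each library to a common depth with PORT and deposited whole-number counts per Ensembl gene. The strand setting of the counting and the read totals before resampling are not given in the sources used here. Columns deposited beside them hold the log2 fold change, the p-value and the q-value from the authors' limma-voom comparison, and were not used.

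The low-count filter was filterByExpr with genotype as the group (at least 10 counts, 15 in total), and 16251 of 25834 genes and 29 of the 33 receptors passed it. Libraries were scaled by TMM (factors 0.964 to 1.03) and genotypes tested by quasi-likelihood in edgeR 4.0.16 (R 4.3.3). P-values were adjusted by Benjamini-Hochberg over all 16251 genes, and an FDR under 0.25 was called, as in the study. Standard errors were derived from the F statistic of each gene. The biological coefficient of variation was 0.152. The test was checked on simulated counts. It recovered 69.4% of 1.6-fold, 86% of 2-fold and 97.9% of 4-fold changes, and 25.3% of its calls were false. The counts were simulated for each gene independently, with no variation shared by the genes of a library. These rates may therefore not hold for the real libraries. Changes below 1.6-fold were not simulated, and the highest fold of the tested receptors was 1.32 (Drd1). For single genes, the exact two-sided permutation test ran over all 70 assignments. No library repeated another (chi-square between pairs of 9.08 to 67.2 per gene).

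Normalized counts are counts divided by the TMM-scaled library size and multiplied by the mean library size. RPKM used exon lengths of GENCODE M21, to which 25696 identifiers were matched, and coordinates are from that annotation. Grk2, Grk3 and Tmem35a were found under the older symbols Adrbk1, Adrbk2 and Tmem35. The exons of 6 receptors overlap a gene on the other strand.

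The members, the gene lists and the tests were chosen with earlier results of these data known. Every member was named. Values per library were given for members at an unadjusted p under 0.05, for the member with the highest RPKM of each family, and for Htr2c and Adrb1. From the pathway lists up to 4 genes with the smallest unadjusted p under 0.05 were named; the values of Drd1, Adra1b and Adra2a by library, the region markers of SAP97-cKO replicate 2 and the genes high in control replicate 3 were singled out after their values were seen, as was the last of the 5 receptor partners. Receptor protein sequences were not analysed here, and the values of a few genes of the lists are not reported here.

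The alternatives were limma-voom 3.58.1, DESeq2 1.42.0, unscaled libraries, edgeR with DESeq2 size factors, no filter, a minimum of 10 counts per library, a replicate block, an FDR of 0.05, the choroid plexus or meningeal list as a covariate, and leaving out each library.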

Additional observations from a re-analysis of the deposited data

Results flagged for a closer look

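In 8 of 66 groups of 4 libraries, 1 per receptor and genotype, a library stood far from the other 3 by Dixon's test. Chance flags about 1 in 20 groups of independent, normally distributed values. The 66 groups share the same 8 libraries and include very low counts, so that rate is not a like comparison. Of the 8 flags, 4 were in SAP97-cKO replicate 2. It was the highest SAP97-cKO library for Drd1 (424.1 normalized counts, others 150.7 to 196.5), Adra1b (284.7, others 115.1 to 143.9) and Htr1d (48.78, others 4.152 to 9.164), and the lowest for Drd5 (224, others 455.9 to 501). The same library had the most Cux2 and the least Dsp and Prox1.

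Control replicate 1 stood above the other controls in Htr2a (354.2 normalized counts, others 225.3 to 239.7) and Htr6 (226.1, others 142.7 to 152.5). Control replicate 2 was the lowest control library for Htr5b (148.5, others 266.9 to 273.9). It was also the only control library with a read of Drd3 (0.9965 normalized counts, others 0). That is a single read, and with the others at 0 a single read is enough for a flag.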

How the results depend on the processing

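Over 29 receptors and 17 alternatives (493 pairs), 447 log2 fold changes kept their direction and their side of the FDR threshold of 0.25, 38 changed sign and 8 newly passed the threshold. No call could be lost, since the main fit called 0 receptors. With the meningeal covariate, 0 genes of any kind were called. The same held without control replicate 2, SAP97-cKO replicate 3 or SAP97-cKO replicate 4. In those fits every receptor necessarily stayed on its side of the threshold. None of the sign changes concerned Adrb1, Chrm1, Chrm4 or Chrm2, and 11 receptors never changed sign. The count of receptors called lower was 0 throughout. The count called higher was 0 except for 2 with DESeq2 and 0 to 4 when 1 library was left out. The cause of these differences was not tested.

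Adjusted for the meningeal list, values turned to -0.077 for Htr1a, 0.31 for Htr2c, -0.19 for Htr3a, -0.70 for Htr5b, -0.020 for Htr6, -0.40 for Adra1d, -0.064 for Adra2c, -0.46 for Chrm5, -0.43 for Chrna5 and -0.15 for Chrna7, and without a change of sign Drd1 moved from 0.40 to 1.45, Htr1b from -0.22 to -0.82, Htr4 from -0.02 to -0.81, Drd5 from -0.07 to -0.78, Chrm4 from 0.39 to 0.72 and Chrm1 from 0.30 to 0.15. With the choroid plexus list it was -0.040 for Htr3a, -0.14 for Htr5b and -0.042 for Chrm5. With no scaling it was -0.036 for Htr5b and -0.033 for Drd2. For Drd2 it was -0.023 with limma-voom and -0.018 with the replicate block. With 1 library left out, values ran from -0.086 to 0.14 for Htr1f, -0.0090 to 0.24 for Htr3a, -0.14 to 0.17 for Htr4, -0.16 to 0.10 for Htr5b, -0.056 to 0.57 for Drd1, -0.21 to 0.17 for Drd2, -0.16 to 0.14 for Drd5, -0.28 to 0.25 for Adra1b, -0.036 to 0.41 for Adra2a and -0.093 to 0.17 for Chrna4. The lists of related genes were refitted in the same way, a choice made after seeing the data, and the median of the related receptors ran from -0.26 to 0.017 (the latter without SAP97-cKO replicate 2).

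Same-numbered control and SAP97-cKO libraries deviated together weakly (r over genes -0.06, 0.20, 0.09 and 0.26), so the replicate numbers were not taken as pairs, and not every library correlated best with its own number. The replicate block called 0 receptors in either direction, and moved the counts over all genes from 46 lower and 2 higher to 234 and 22. Those counts were 588 and 445 with DESeq2, 89 and 15 with no filter, 94 and 1 with no scaling, 15 and 1 with the choroid plexus covariate and 0 and 0 with the meningeal covariate (642 genes at an unadjusted p under 0.05). Leaving out control replicate 1 gave 960 and 715, leaving out SAP97-cKO replicate 1 gave 450 and 261, and leaving out control replicate 2, SAP97-cKO replicate 3 or SAP97-cKO replicate 4 gave 0 and 0 (1403, 1259 and 1167 genes at an unadjusted p under 0.05).

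With 4 libraries a group, the 95% interval of the log2 fold change ran from -0.08 to 0.29 for Chrnb2, the narrowest of the 29, and from -1.02 to 0.32 for Htr2c, and Htr1d, Drd3, Drd4 and Adra2b had 11 to 116 reads in all 8 libraries together.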

Other observations

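Control replicate 3 stood apart in genes of cholinergic and habenular neurons. It held 247 normalized counts of the nicotinic subunit Chrna3 (7.76 to 25.5 in the other 7 libraries), 128 of Chat, which makes acetylcholine (3.00 to 14.6), 388 of the choline transporter Slc5a7 (28.9 to 70.9), 106 of the vesicular acetylcholine transporter Slc18a3 (2.03 to 18.0) and 394 of Gpr151, a habenular receptor (27.4 to 48.8). Chrna5, which lies beside Chrna3 in the genome and is one of the 33 receptors, had 167 normalized counts in this library, within the range of the others (142 to 234).

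The summed thalamus and habenula list was also highest in this library, at 13250 normalized counts against 6645 to 8840 in the others.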
